A study of Caenorhabditis elegans with 15 samples.

Results

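Insulin-like peptide genes were taken as every gene of the deposited count table whose symbol is ins- followed by a number, together with daf-28, which gave 29 of the 14831 genes in that table. Ensembl's WBcel235 annotation of Caenorhabditis elegans holds 39 such genes, and the other 10 were not analysed as genes here (ins-6, ins-11, ins-13, ins-23, ins-25, ins-27, ins-28, ins-29, ins-30 and ins-37). The study tagged RNA in chosen cells by trans-splicing, the reaction that joins a short spliced leader RNA to the 5′ end of a pre-mRNA. Transgenic worms expressed a leader that carried a sequence tag, and RNA with the tag was pulled down, amplified by PCR and sequenced. Each read thus marks an acceptor site, the place in the RNA that follows the leader. Neurons carried the Prgef-1::tag:SL1(G16C) transgene, whose promoter is active in most neurons, and were sampled on day 12 of adulthood and in young adults (2 libraries each). Muscle carried Pmyo-3::tag:SL1(G16C), whose promoter is active in body-wall and other muscle outside the pharynx, and was sampled at larval stages L1 and L2 (1 library each), at dauer, the arrested larval stage that resists harsh conditions, in young adults and on day 12 (2 libraries each). A mixed-stage culture with PU2-3::tag:SL1(G16C) stood for multiple tissues (2 libraries), and a mixed-stage muscle library with Pmyo-3::tag:SL2(T5A) carried the second leader (1 library). Day 12 animals, counted with the young adult as day 1, had been kept on fluorodeoxyuridine at 400 µM to stop reproduction, and no other group received it. All worms were grown at 20 °C, those for dauer libraries in liquid culture, from which dauers were isolated with detergent and left overnight in salt solution before harvest.

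Insulin-like peptides of C. elegans are small secreted hormones, made as precursors and released mostly from dense-core vesicles of neurons and from the intestine. They bind DAF-2, the single insulin receptor of the worm. Agonists such as DAF-28 and INS-4 activate a kinase cascade that keeps the transcription factor DAF-16 out of the nucleus and favours growth to the adult, while antagonists such as INS-1 and INS-18 act in the opposite sense and favour dauer arrest and long life. The peptides are known above all from sensory neurons, and body-wall muscle is known mainly as a tissue that responds to them.

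The shallowest library, day 12 neuron replicate 1, held 57104 gene reads, and the deepest, dauer replicate 2, held 9587967, a ratio of 168. Levels below are CPM, counts per 1000000 reads after edgeR's TMM scaling of library sizes, unless given as reads or as RPM, reads per 1000000 gene reads without that scaling. Counts of 3 reads are 52.5 RPM in the shallowest library and 0.313 RPM in the deepest. Neuron libraries were the shallowest, with 57104 to 282171 gene reads. The promoter gene rgef-1 has no row in the count table. Of 25 pan-neuronal marker genes 21 were in the table. Their summed level was 5264 to 6217 RPM in neurons, 1523 to 4520 in SL1-tag muscle and 1594 to 1685 in multiple tissues. In the young adult neuron libraries 10 and 10 of the 21 were at 0. Of the 1385 and 1671 marker reads there, ric-4 held 697 and 834 and snb-1 held 462 and 609. Against young adult muscle edgeR called 0 of 18 tested markers higher in young adult neurons and 2 lower (tbb-1 and unc-64), beside 13.1% of all tested genes called. Between the tissues on day 12 it called 0 higher and 1 lower (tbb-1), beside 5.44%. Body-wall muscle markers (24, of which 19 were in the table) summed to 10933 to 40290 RPM in SL1-tag muscle, against 361 to 981 in neurons. In these bulk libraries fewer cells of a type and less RNA per cell cannot be told apart, and RNA that is not trans-spliced to SL1 is not seen. Since each read marks 1 acceptor site, no level is divided by gene length. Fold changes are log2 values with their standard error (SE), and adjusted p-values are edgeR's over all 8954 tested genes, with 0.05 as the threshold.

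At least 1 read fell on 26 of the 29 genes, and more of them were read in neurons than in muscle. In neurons 25 were read, against 12 in muscle. Both tissues shared 11 (daf-28, ins-1, ins-7, ins-10, ins-12, ins-15, ins-17, ins-18, ins-34, ins-35 and ins-36). In neurons but not in muscle 14 were read (ins-3, ins-4, ins-5, ins-8, ins-9, ins-14, ins-16, ins-20, ins-22, ins-24, ins-26, ins-32, ins-33 and ins-39). Muscle but not neurons held 1, ins-19, with 1 read in dauer and 3 in young adult muscle. No read fell on ins-2, ins-21 or ins-31. Over all 14831 genes the order of the tissues was the other way round, with 60.1% read in neurons and 65.1% in muscle, 14.9% in neurons but not muscle and 20.0% in muscle but not neurons. The neuron libraries were the shallowest, and at a common depth of 57104 reads a library the numbers computed were 24 genes in neurons, 8.93 in muscle and 8.69 in both. The SL2-tag library, 2520944 reads deep, held 0 reads of any of the 29 genes, and 3 counts of it are 1.19 RPM. Its title and strain name SL2 while its description names SL1, so which leader that 0 concerns is not settled.

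**Figure D1:**
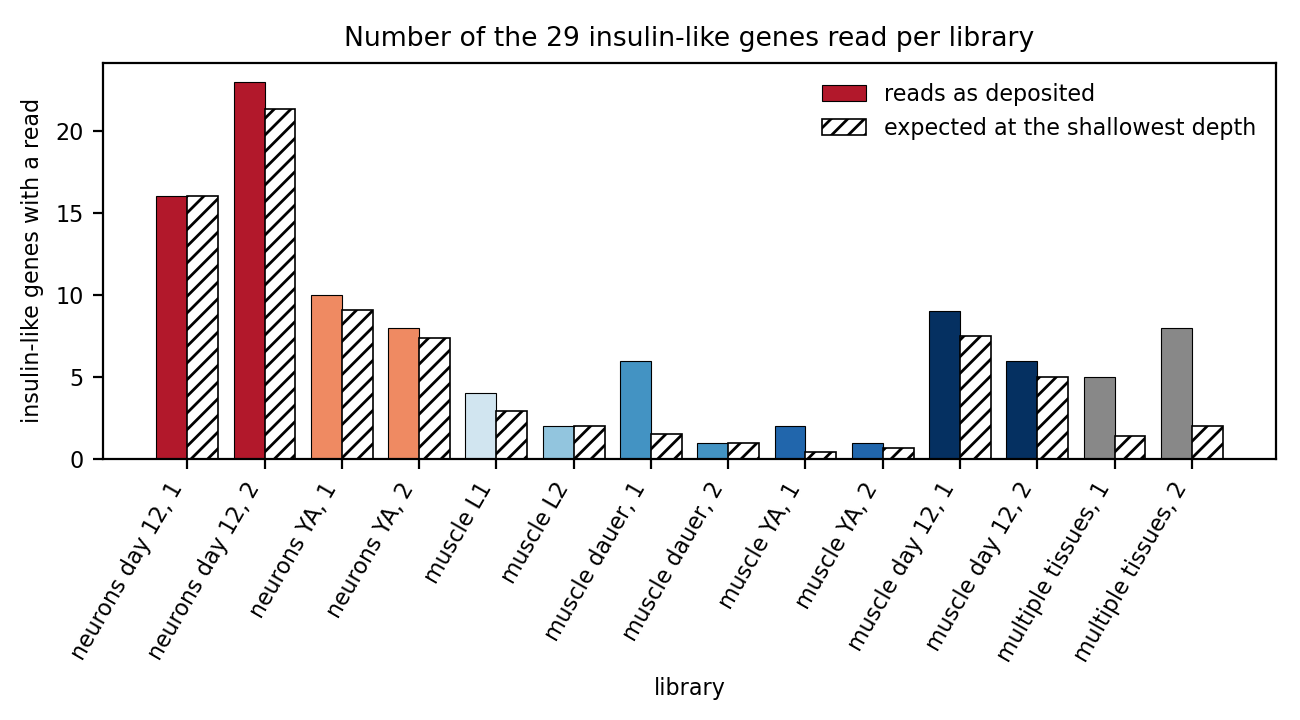
Number of the 29 insulin-like genes with at least 1 read in each SL1-tag library, as deposited (filled bars) and as computed for a depth of 57104 gene reads in each library (hatched bars). The day 12 neuron libraries held 16 and 23 genes, the young adult neuron libraries 10 and 8, and the young adult muscle libraries 2 and 1.

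By stage, the day 12 neuron libraries held the most of these genes. Day 12 neurons held 16 and 23 genes and young adult neurons 10 and 8, although the day 12 libraries were the shallower ones. Genes of all kinds were also read in larger number in day 12 neurons, 5275 and 6757 against 3913 and 4105 in young adult neurons. The rise is therefore not particular to insulin-like genes. Every insulin-like gene read in young adult neurons was also read in day 12 neurons (11 genes), and 14 more were read on day 12 alone. In muscle, L1 held 4 genes and L2 held 2, the dauer libraries 6 and 1, young adults 2 and 1, and day 12 muscle 9 and 6. Day 12 muscle shared ins-17 with young adult muscle and held 9 further genes (daf-28, ins-1, ins-7, ins-10, ins-15, ins-18, ins-34, ins-35 and ins-36). All 10 were read in neurons too. Summed over the 29 genes, insulin-like reads made up 7408 and 7388 RPM in day 12 neurons and 11768 and 10203 in young adult neurons. In muscle the sums were 529 RPM at L1, 474 at L2, 43.0 and 82.4 in dauer, 8.06 and 19.7 in young adults and 1006 and 227 on day 12, and in multiple tissues 33.7 and 50.6. The neuron libraries were thus above each muscle library, and the 2 day 12 muscle libraries differed from each other by more than the larval libraries did.

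**Figure D2:**
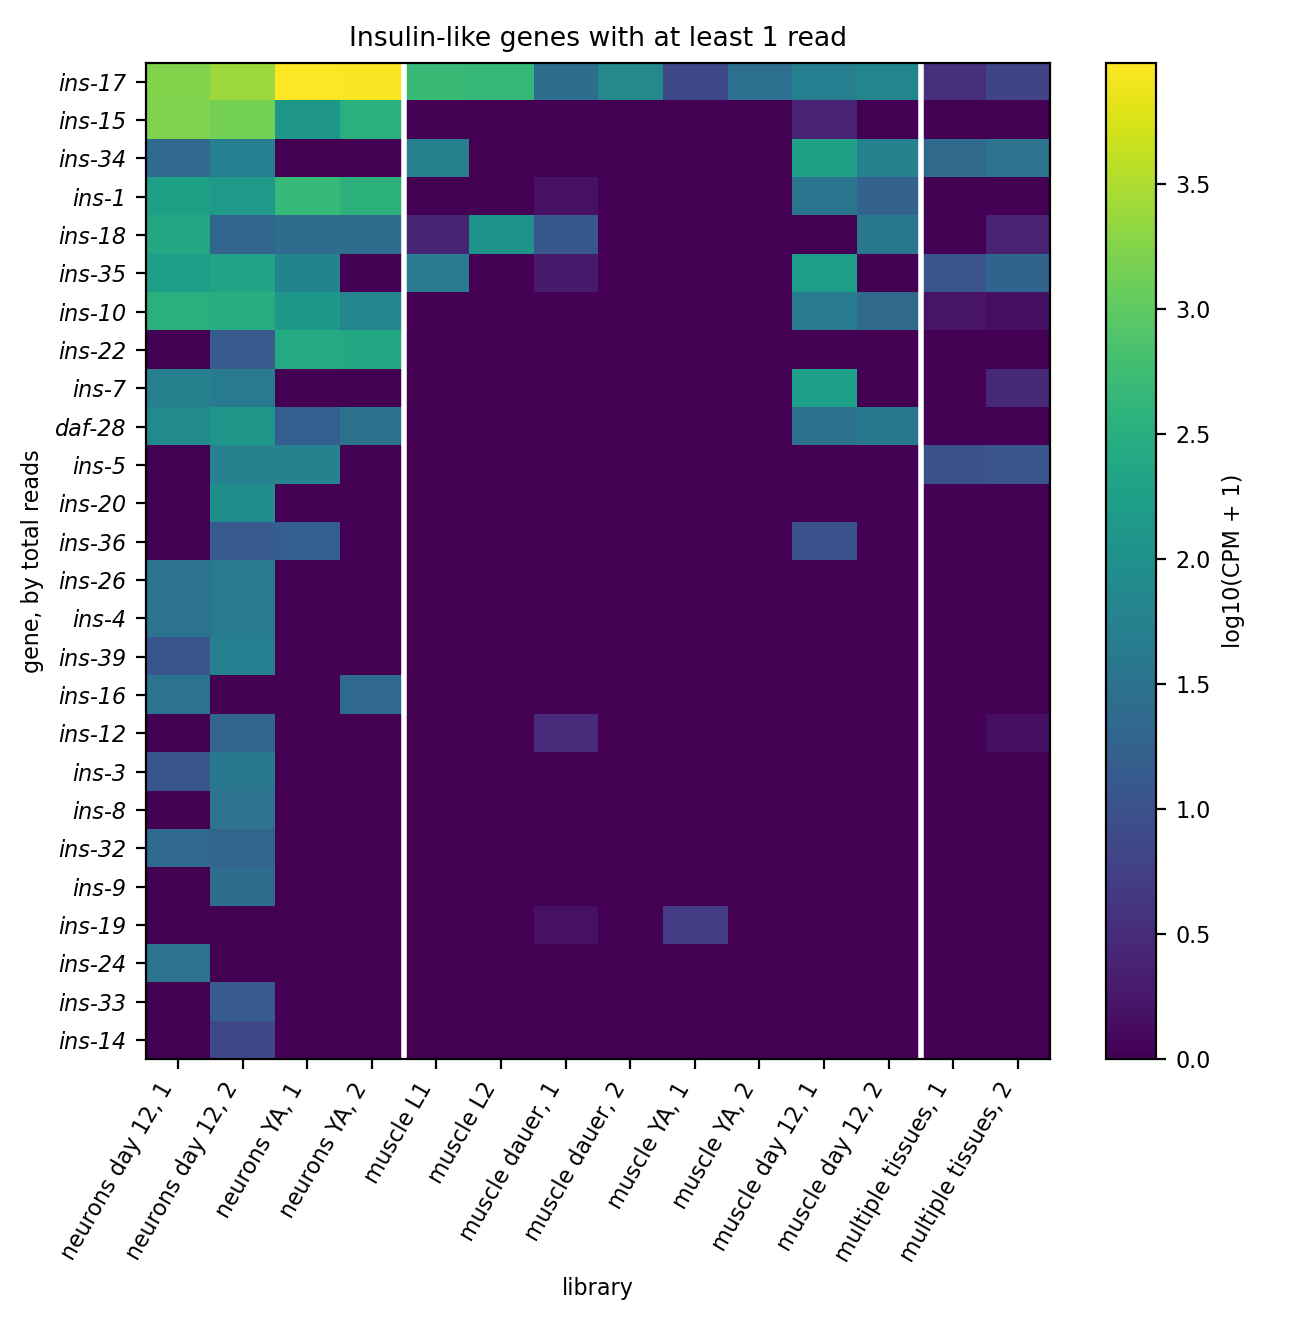
Level of each of the 26 insulin-like genes with a read, as log10(CPM + 1), in the 14 SL1-tag libraries, with genes ordered by total reads and white lines between neurons, muscle and multiple tissues. The lower rows, genes with 14 reads or fewer, are filled mostly in the 2 day 12 neuron columns.

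Among the 29 genes, ins-17 alone supplied most of the reads in young adult neurons and in larval, dauer and young adult muscle. This gene (WBGene00002100, chromosome III, 4476918 to 4477572, minus strand, WBcel235) encodes a peptide that has been reported to act as an antagonist of DAF-2 in dauer formation. It had 157 and 389 reads in day 12 neurons, 2663 and 2574 in young adult neurons, 313 at L1, 695 at L2, 54 and 790 in dauer, 5 and 45 in young adult muscle, 35 and 105 in day 12 muscle, and 4 and 14 in multiple tissues. It was the one member read in all 14 SL1-tag libraries. Among all genes with a read it ranked 11th of 3913 and 12th of 4105 in young adult neurons and 28th of 5275 and 19th of 6757 in day 12 neurons, against 351st of 4302 at L1 and 4603rd of 5925 and 2983rd of 6042 in young adult muscle. Its share of insulin-like reads was 37.1% (95% Clopper-Pearson interval 32.5 to 41.9) and 47.0% (43.5 to 50.4) in day 12 neurons, and 89.2% (88.0 to 90.3) and 89.4% (88.2 to 90.5) in young adult neurons. Day 12 neurons thus had a lower share in both libraries, with intervals apart from those of both young adult libraries. In day 12 muscle its share was 7.49% and 27.4%, and in multiple tissues 5.41% and 7.61%. These intervals hold counting error alone: the reads are PCR copies with no molecular identifier, and several may stem from 1 molecule.

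**Figure D3:**
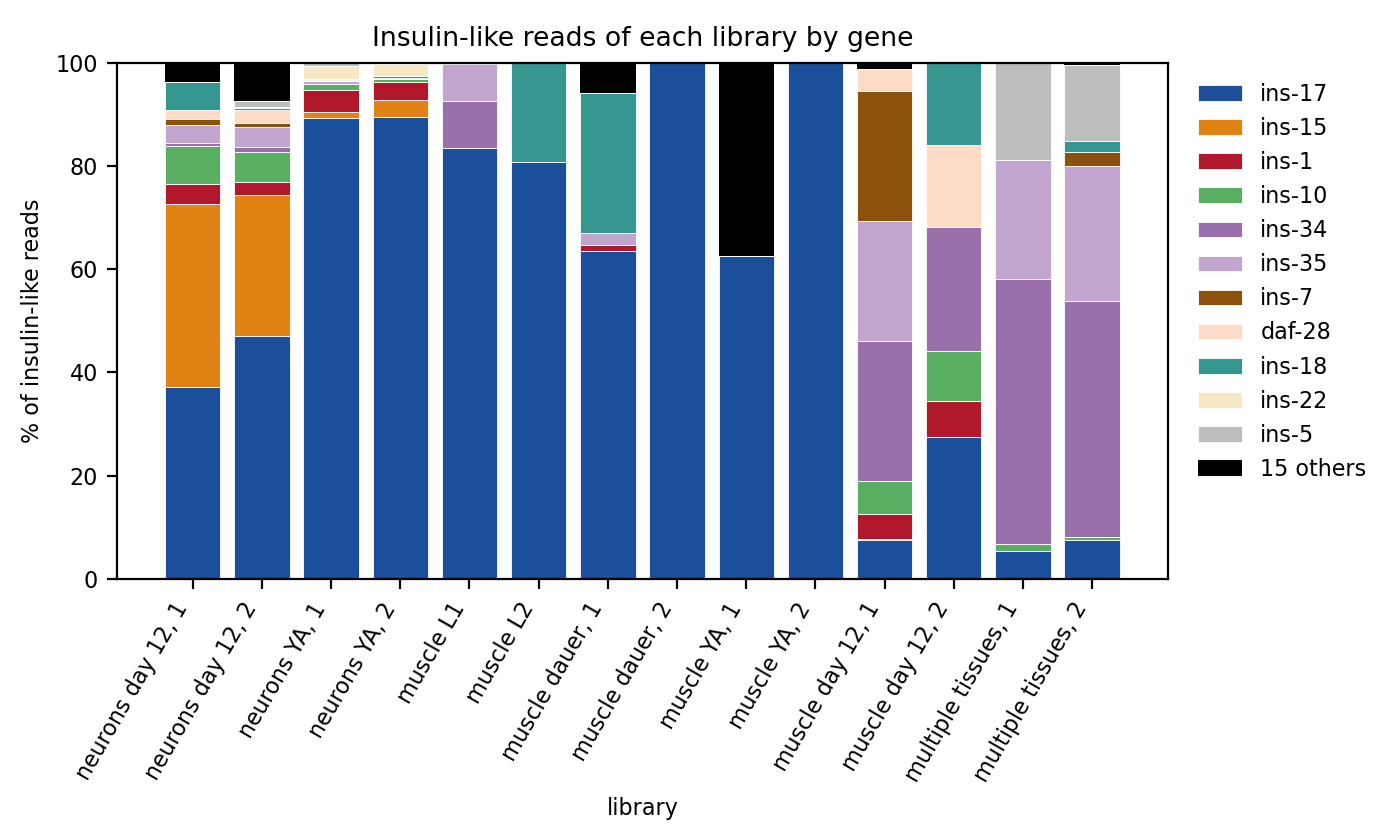
Share of each library's reads of the 29 insulin-like genes, in percent, that fell on each of the 11 genes with the most reads and on 15 others. The share of ins-17 was 89.2% and 89.4% in young adult neurons and 37.1% and 47.0% in day 12 neurons, where ins-15 took 35.5% and 27.3%.

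The comparison of young adult neurons with young adult muscle asks which insulin-like transcripts belong to which tissue. Levels of ins-17 were 9662 and 9308 CPM in neurons, against 6.43 and 27.1 CPM in muscle. Both neuron libraries lay far above both muscle libraries, with a log2 fold change of 9.09 ± 0.90 (SE, edgeR adjusted p = 0.000226, n = 2 per group). The other 5 called genes had no read in either young adult muscle library, so their folds are lower bounds, computed from reads pooled over a group against 3 counts over the 2 muscle libraries. A second bound in brackets is the lowest with any 1 library left out.

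Transcripts of ins-1 (WBGene00002084, IV, 10436701 to 10438412), whose peptide is held to be among those most like human insulin and acts in learning about salt and food, stood at 464 and 362 CPM in young adult neurons and at 0 and 0 in muscle. Both neuron libraries lay above both muscle libraries, at least 336-fold (107) higher in neurons (edgeR adjusted p = 0.00571). The gene ins-15 (WBGene00002098, II, 6744339 to 6744748) had 127 and 344 CPM in neurons and 0 in both muscle libraries, at least 191-fold (61) higher (edgeR adjusted p = 0.00473). For ins-22 (WBGene00002105, III, 10026289 to 10026686), whose fluorescent fusions are used to mark dense-core vesicles, neurons had 272 and 257 CPM and muscle 0 and 0, at least 215-fold (68.6; edgeR adjusted p = 0.0244). Its replicates lay closer together than those of ins-15.

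The gene ins-10 (WBGene00002093, V, 14033949 to 14034396) had 131 and 65.1 CPM in young adult neurons and 0 in both muscle libraries, at least 79.5-fold (25.4; edgeR adjusted p = 0.00526). The agonist gene daf-28 (WBGene00000920, V, 19815133 to 19816454), made in sensory neurons and needed to avoid dauer arrest, rested on 4 and 8 reads in neurons. These gave 14.5 and 28.9 CPM in neurons and 0 and 0 in muscle, at least 17.7-fold (5.64; edgeR adjusted p = 0.0454). The gene ins-22 was not called by DESeq2's Wald test, which called 7 members with ins-18 and ins-35 among them and 19.9% of all tested genes. In all, edgeR called 6 of the 11 members it could test higher in young adult neurons and 0 lower, where 13.1% of all tested genes were called 4.46% were called higher, and the 2 tissues did not overlap for 56.7%. The other 18 members had too few reads to be tested. Genes that passed the filter on low counts through neurons alone had to differ, so this count is a description.

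The 5 tested members that were not called did not share a pattern. ins-18 was read 7 and 7 times in young adult neurons and not in young adult muscle (25.4 and 25.3 CPM against 0 and 0; edgeR adjusted p = 0.188). ins-5 had 16 and 0 reads in neurons (58.0 and 0 CPM) and ins-35 had 17 and 0 (61.7 and 0 CPM), each with none in muscle. ins-7 and ins-34 had no read in either group. Leaving out a library took ins-22 and daf-28 below the call in each of the 4 cases, and ins-1 too without young adult muscle replicate 2, so that 3 genes were called without that library and 4 without each of the others. The median gene stood at -0.56 on the log2 scale here and at 0 when DESeq2's size factors replaced TMM, with 34% of all calls higher under TMM and 54.9% under the size factors. Germline markers (20, all in the table) summed to 2649 and 2307 RPM in young adult neurons against 171 and 271 in young adult muscle, with 18 and 17 of them at 0 in neurons, and their part in these results was not tested.

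**Figure D4:**
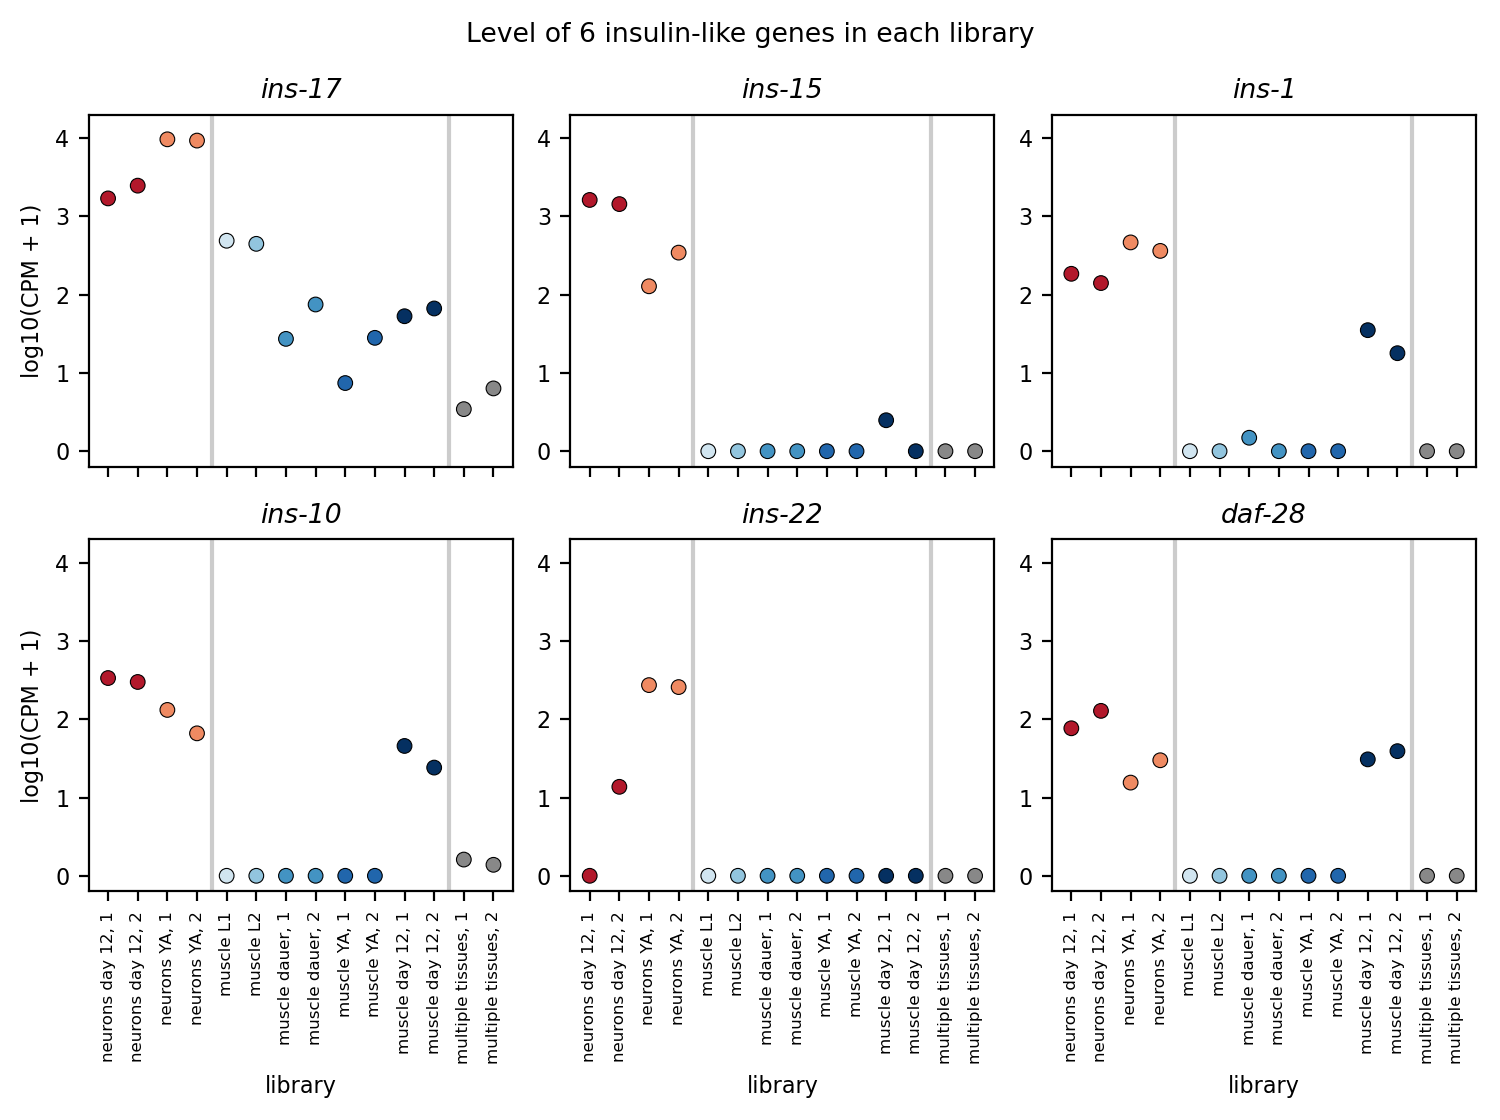
Level of 6 insulin-like genes as log10(CPM + 1) in each SL1-tag library, 1 point per library, with grey lines between neurons, muscle and multiple tissues. All 4 neuron points of ins-17, ins-15, ins-1 and ins-10 lie above all 8 muscle points of the same gene, and daf-28, ins-1 and ins-10 have muscle points above 2 CPM on day 12 alone.

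On day 12 fewer members were called between neurons and muscle, 2 in all. Levels of ins-17 were 1698 and 2471 CPM in day 12 neurons, against 52.0 and 65.6 CPM in day 12 muscle, a log2 fold change of 5.14 ± 0.76 (edgeR adjusted p = 0.00421). The gene ins-15 stood at 1622 and 1436 CPM in neurons and 1.49 and 0 CPM in muscle, 11.39 ± 1.44 (edgeR adjusted p = 0.00648), where the muscle value is 1 read. Both neuron libraries lay above both muscle libraries for each of these 2 genes. Both members called were thus higher in neurons, where 5.44% of all tested genes were called and 2.41% were called higher. The gene ins-15, with 506 of its 507 reads in the gene counts in neurons, passed the filter on low counts through neurons alone, so its call is a description. Outside the gene counts the start of its second exon held 20 more reads, all in day 12 muscle replicate 2.

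Other members read in both tissues on day 12 were not called by edgeR. DESeq2's Wald test called 3 members, ins-10 beside ins-15 and ins-17, and 11.3% of all tested genes, and edgeR called the same 3 when fitted to the compared groups alone. ins-10 had 335 and 299 CPM in day 12 neurons against 44.6 and 23.1 CPM in day 12 muscle (3.23 ± 1.03, edgeR adjusted p = 0.124). ins-1 had 184 and 140 CPM in neurons against 34.2 and 16.9 CPM in muscle (2.67 ± 1.18, edgeR adjusted p = 0.249). For both genes the libraries of the tissues did not overlap, which held for 37% of all tested genes. The agonist gene daf-28 had 75.7 and 127 CPM in neurons against 29.7 and 38.1 CPM in muscle (edgeR adjusted p = 0.589). The gene ins-34 (WBGene00002117, IV, 14106574 to 14107737) had lower neuron values, 21.6 and 50.8 CPM in neurons against 187 and 57.5 CPM in muscle (edgeR adjusted p = 0.533). The values of ins-7 came from 5 and 7 reads in neurons against 117 and 0 in muscle, and the neuron libraries lay between the 2 muscle libraries (edgeR adjusted p = 1). Without either day 12 neuron library ins-15 lost its call and 1 gene was called.

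Ageing of muscle was read from day 12 against young adult muscle, where age and fluorodeoxyuridine differ together. The day 12 libraries held reads of members that young adult muscle lacked. ins-10 had 30 and 37 reads in day 12 muscle, 44.6 and 23.1 CPM, and none in young adult muscle. It was at least 24-fold (7.64) higher and the 1 member called (edgeR adjusted p = 0.0446), where 1.55% of all tested genes were called and 0.603% were called higher. Just above the threshold lay ins-34 with 187 and 57.5 CPM in day 12 muscle and none in young adults, at least 78-fold (24.9; edgeR adjusted p = 0.0692).

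The antagonist gene ins-1 had 23 and 27 reads in day 12 muscle and none in young adult muscle, 34.2 and 16.9 CPM against 0 and 0 (edgeR adjusted p = 0.0765). The agonist gene daf-28 had 20 and 61 reads against none, 29.7 and 38.1 CPM against 0 and 0 (edgeR adjusted p = 0.0944). Both genes had a read in each day 12 library. By contrast 3 members were split between the replicates. ins-7 (WBGene00002090, IV, 9682011 to 9682845), an agonist gene known from intestine and neurons, had 117 reads in day 12 replicate 1 and 0 in replicate 2. ins-35 (WBGene00002118, V, 20375536 to 20376302) had 109 and 0, and ins-18 (WBGene00002101, I, 8147427 to 8149651), whose peptide is held to be an antagonist, had 0 and 61. ins-17, the one member read in both groups, had 52.0 and 65.6 CPM on day 12 against 6.43 and 27.1 CPM in young adults (1.76 ± 0.68, edgeR adjusted p = 0.205).

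The call of ins-10 rests on its setting. It was lost without day 12 replicate 1. It was also lost without either young adult muscle library, where the loss of calls held for genes of all kinds. Each of these fits leaves a group with 1 library. With all libraries DESeq2's Wald test called 6 members (daf-28, ins-1, ins-10, ins-17, ins-34 and ins-35) and 9.79% of all tested genes. In the authors' deposited table for the same groups the adjusted p of ins-10 is 0.557, that of ins-34 is 0.00431 and that of ins-7 is 0.0407. Marker sums of other cell types differed between these libraries in both directions. Body-wall muscle markers summed to 18460 and 28472 RPM in day 12 muscle, against 40290 and 39105 in young adult muscle, with 4 and 4 of 19 at 0 on day 12. Pan-neuronal markers summed to 1622 and 1861 RPM in day 12 muscle, against 4520 and 3743 in young adult muscle, with 11 and 14 of 21 at 0 on day 12. Intestinal markers (20, of which 11 were in the table) summed to 151 and 17.8 in day 12 muscle against 52.4 and 30.6, with 8 and 10 at 0 on day 12. Markers of glia and coelomocytes (5 in the table) summed to 64.6 and 26.7 against 3.02 and 1.75, and those of the pharynx (4 in the table) to 40.9 and 16 against 0 and 0. The part of other cells in these reads was not tested.

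In neurons, day 12 against young adult, 0 members were called by edgeR, where 0.0223% of all tested genes were called. At an unadjusted p under 0.05 there were 4, ins-15, ins-17, ins-22 and ins-34, and DESeq2's Wald test called 0 members and 3.45% of all tested genes. Levels of ins-17 were 1698 and 2471 CPM in day 12 neurons, against 9662 and 9308 CPM in young adult neurons (-2.19 ± 0.66, edgeR adjusted p = 0.277). ins-15 moved the other way, with 1622 and 1436 CPM on day 12 against 127 and 344 CPM in young adults (2.70 ± 0.92, edgeR adjusted p = 0.399). The day 12 libraries did not overlap the young adult libraries for either gene, which held for 29.1% of all tested genes.

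ins-22 had 0 and 2 reads in day 12 neurons against 75 and 71 in young adult neurons, 0 and 12.7 CPM against 272 and 257 CPM (-5.18 ± 1.73, edgeR adjusted p = 0.407). ins-34 had 2 and 8 reads on day 12 and none in young adults, at least 7.36-fold (3.68; edgeR adjusted p = 0.314). In the day 12 neuron libraries 3 reads correspond to 32.4 and 19.1 CPM, so the day 12 values of ins-22 lie under that floor and its young adult values above it. In the authors' deposited table ins-17 has a ratio of 0.266 (adjusted p = 7.35e-08), ins-15 one of 7.97 (6.08e-07) and ins-22 one of 0.0284 (0.0816), in the same directions.

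Values of the other members read at both ages in neurons were these. daf-28 had 75.7 and 127 CPM in day 12 neurons against 14.5 and 28.9 CPM in young adult neurons, ins-10 had 335 and 299 CPM against 131 and 65.1 CPM, and ins-1 had 184 and 140 CPM against 464 and 362 CPM. The libraries did not overlap for any of the 3 genes, and none was called (edgeR adjusted p = 0.621 for daf-28, 0.592 for ins-10 and 0.698 for ins-1). ins-18 had 249 and 19.1 CPM on day 12 against 25.4 and 25.3 CPM, so that its day 12 replicates lay on either side of the young adult ones (ins-18 had 23 and 3 reads on day 12). ins-35 had 162 and 210 CPM on day 12 against 61.7 and 0 CPM in young adults. Intestinal markers summed to 140 and 143 RPM in day 12 neurons against 43.4 and 14.2 in young adult neurons (8 and 7 of 11 at 0 on day 12), and hypodermal markers (12 in the table) to 52.5 and 205 against 0 and 0 (10 and 7 at 0 on day 12), from 3 to 23 reads. Their part in these values was not tested.

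The change with age in neurons minus the change with age in muscle was tested in the same fit. edgeR called 0 members, where 0.804% of all tested genes were called; 4 members were below an unadjusted p of 0.05 (daf-28, ins-1, ins-10 and ins-17), and DESeq2's Wald test called 3 of them (ins-1, ins-10 and ins-17) and 6.14% of all tested genes. The difference was -3.95 ± 0.95 on the log2 scale for ins-17 (edgeR adjusted p = 0.0989), whose values were lower on day 12 in neurons and higher on day 12 in muscle. For ins-1, ins-10 and daf-28 the muscle side starts from 0 reads, so the size of the fitted difference depends on edgeR's prior count (edgeR adjusted p = 0.107, 0.137 and 0.273). The median of all genes in this contrast was 0.93, or 0.70 with DESeq2's size factors.

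Dauer muscle was set against larval muscle, the mean of the L1 and L2 libraries, to ask what differs in the arrested stage. ins-17 was lower in dauer, at 26.3 and 73.9 CPM against 488 CPM at L1 and 445 CPM at L2 (-3.21 ± 0.69, edgeR adjusted p = 0.0371). Both dauer libraries lay below both larval ones. This was the 1 member called, where 3.29% of all tested genes were called and 0.603% were called lower. The median gene was higher in dauer by 1.35 on the log2 scale, and dauer and larval libraries did not overlap for 36.1% of genes. Pan-neuronal markers summed to 3261 and 4510 RPM in dauer against 1980 at L1 and 1523 at L2, with 3 and 13 of 21 at 0 in dauer, and their part was not tested. The call of ins-17 was lost without either dauer library, without L1 and without L2. Its log2 fold change was -4.18 to -2.62 over all 10 alternative fits. Leaving out a dauer library leaves dauer with 1 library, and leaving out L1 or L2 leaves the other stage alone as reference. L1 and L2 have 1 library each in every fit, so the spread on the larval side is taken from the other groups.

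The authors' deposited larval tables do not match the deposited counts. They list ins-34 at 0 in larvae, where the counts hold 34 reads at L1, and ins-35 above 0 in L2 muscle, where the counts hold 27 reads at L1 and 0 at L2. The values at L1 and L2 and the comparison of dauer with larvae, the call of ins-17 included, carry that doubt. Larval libraries have no replicates, so their other values are given as RPM with exact Poisson intervals (95%, counting error only). ins-18 had 1.41 (0.0357 to 7.86) at L1 and 90.9 (77.5 to 106) at L2, from 1 and 165 reads. ins-34 had 47.9 (33.2 to 67.0) at L1 and ins-35 had 38.1 (25.1 to 55.4), while 0 of 1815663 reads at L2 fell on either, which allows up to 1.65 RPM. In dauer, ins-18 had 23 and 0 reads, ins-35 had 2 and 0, and ins-34 had none. A further 3 members were read in dauer but not in larval muscle, ins-1 (1 read), ins-12 (4 reads) and ins-19 (1 read), all in replicate 1. The second dauer library held 790 reads of the 29 genes, all of ins-17, and its gene total was the highest of all libraries. Against young adult muscle, dauer had 0 members called by edgeR (0.134% of all tested genes), 1 at an unadjusted p under 0.05, ins-17 (26.3 and 73.9 CPM against 6.43 and 27.1 CPM; 1.54 ± 0.67, edgeR adjusted p = 0.624), and 0 by DESeq2 (4.02% of all tested genes). There the lower dauer library lay within the range of young adult muscle. daf-28 and ins-4, agonist genes whose loss favours dauer arrest, had no read in any dauer, larval or young adult muscle library.

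The multiple-tissue libraries, of mixed stage, held 8 members. The most read were ins-34 (38 and 84 reads, 23.3 and 32.1 CPM), ins-35 (17 and 48 reads) and ins-5 (14 and 27 reads). ins-5 (WBGene00002088, II, 5997557 to 5999023) was the one of these 8 not read in muscle, and all 8 were read in neurons. The 5 comparisons with multiple tissues share these 2 libraries and are therefore not independent. Against them, young adult neurons had 6 members called higher (17% of all tested genes called, 7.8% higher), ins-17, ins-15, ins-1, ins-10, ins-22 and daf-28, in a comparison that shares its 2 neuron libraries with the one against young adult muscle, with ins-17 at 9662 and 9308 CPM against 2.45 and 5.34 CPM (11.19 ± 0.98, edgeR adjusted p = 8.72e-05). Day 12 neurons had 5 called higher (12.1% of all tested genes called, 6.9% higher), ins-17, ins-15, ins-10, ins-1 and daf-28, among which ins-15 was at least 2134-fold (820) higher (edgeR adjusted p = 0.00203). Since ins-15 and ins-22 passed the filter on low counts through neurons alone, their calls in these 2 neuron comparisons are a description. In day 12 muscle 4 were called higher (9.82% of all tested genes called, 4.88% higher), ins-17 (3.86 ± 0.75), ins-10 (5.93 ± 1.23), ins-1 (at least 31.2-fold, 12) and daf-28 (at least 50.6-fold, 19.4). In young adult muscle edgeR called 0 (5.12%), with 2 at an unadjusted p under 0.05 and 1, ins-34, called by DESeq2, which called 13.4% of all tested genes. The authors' deposited tables differ here. For day 12 muscle against multiple tissues their adjusted p is 0.375 for ins-17, 0.407 for ins-10, 0.401 for ins-1 and 0.208 for daf-28. For young adult muscle it is 0.000347 for ins-34 and 0.0257 for ins-35, both lower in muscle.

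Dauer muscle against multiple tissues was the one comparison with a member in each direction (7.45% of all tested genes called, 5.14% higher and 2.31% lower). ins-17 was higher, at 26.3 and 73.9 CPM against 2.45 and 5.34 CPM (3.63 ± 0.74, edgeR adjusted p = 0.0152). ins-34 was lower, with 0 reads in dauer against 23.3 and 32.1 CPM, at least 121.8-fold (19.7; edgeR adjusted p = 0.0286). Calls depended on single libraries in these comparisons. Without multiple-tissue replicate 1 or 2 young adult neurons had 3 called (ins-1, ins-15 and ins-17), and 4 members were called without either neuron library. Day 12 neurons likewise had 3 and 3 without a multiple-tissue library, against 4 and 4 without a neuron library. Day 12 muscle had 0 and 1 called without multiple-tissue replicate 1 and 2, against 4 and 3 without day 12 muscle replicate 1 and 2. Dauer had 0 and 1 without multiple-tissue replicate 1 and 2, against 2 and 0 without dauer replicate 1 and 2.

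The remaining 15 members with a read had 1 to 14 reads each over all libraries. Of these, 12 were read in day 12 neurons and not in young adult neurons. Over all genes, too, the day 12 neuron libraries held more (5275 and 6757 against 3913 and 4105). The agonist gene ins-4 had 3 and 7 reads in day 12 neurons and none elsewhere, and ins-26 also had 3 and 7. ins-3 had 1 and 6, ins-39 had 1 and 8, and ins-32 had 2 and 3. Seen in 1 day 12 neuron library each were ins-20 (14 reads), ins-8 (5), ins-9 (4), ins-24 (3), ins-33 (2) and ins-14 (1). ins-16 had 6 reads in young adult replicate 2 and 3 in day 12 replicate 1, and ins-36 had 4 and 2 in neurons beside 6 in day 12 muscle. ins-12 had 3 in day 12 neuron replicate 2, 4 in dauer replicate 1 and 1 in multiple-tissue replicate 2. These counts lie near the floor of 3 reads, and those of ins-14 and ins-33 are under it.

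Members lie in groups along the chromosomes, and neighbours differed in their reads. Of the 39 annotated genes 25 lie in 7 clusters whose members are at most 20000 bases apart, and 16 of the 29 members are among them. On chromosome II ins-15, with 507 reads, lies 686 bases from ins-14, with 1 read. On chromosome III ins-22 (148 reads) lies 2080 bases from ins-21 (0 reads), and on chromosome IV ins-7 (134 reads) lies 1069 bases from ins-8 (5 reads). The cluster of ins-2 to ins-6 and ins-20 on chromosome II held 66 reads of ins-5, 14 of ins-20, 10 of ins-4, 7 of ins-3 and 0 of ins-2. How reads that map to more than 1 place were treated is not given in the sources used here, so a split of reads between near-identical neighbours cannot be told apart from a difference in level.

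The deposited site table gives the acceptor sites at which the reads end, which shows what part of a transcript was tagged. In all 435 pairs of member and library the gene count equals the sum of reads at sites that the authors class as trans. There were 30 such sites in 26 members. At 22 of them, with 97% of the 10386 reads, the site lay 0 to 110 bases upstream of the annotated coding start or at it (median 34 bases), so that the annotated coding sequence lies downstream of it. The other 8 sites, with 313 reads, lay downstream of it. Among these the one site of ins-22 (III, 10026349) lay within a coding exon and that of ins-7 (IV, 9682421) at the start of a coding exon. All 7843 trans reads of ins-17 ended at 1 site (III, 4477572), the first base of its first exon, 51 bases upstream of the coding start. Its 1 other read fell on a cis site, the kind that joins 2 exons of 1 transcript.

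Reads at cis sites are not part of the gene counts, and for several insulin-like genes they outnumber them. The 29 members had 1228 reads at cis sites. ins-18 had 294 reads at trans and 896 at cis sites (75.3% cis). Of the cis reads 845 ended at the start of its second exon (I, 8148918), with 73 and 90 reads in day 12 neurons, 231 and 424 in young adult neurons, 27 at L1 and 0 in the other libraries. In neurons these are 1278 and 803 RPM on day 12 and 911 and 1503 in young adults, above its trans reads in each neuron library. When reads at trans and cis sites were summed, an alternative chosen after seeing the data, ins-18 passed the threshold in young adult neurons against young adult muscle (edgeR adjusted p = 0.0227), where 15.6% of the 12235 genes so tested were called. ins-36 had 12 reads at trans and 223 at cis sites. Over all genes cis sites took 58.7 to 61% of trans and cis reads in neuron libraries, against 13 to 41.3% in SL1-tag muscle and 3.93 to 3.97% in multiple tissues, so a cis share differs between tissues for genes in general.

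Both insulin-like genes with the most cis reads outside the gene table lie in a cluster of 7 on chromosome I (14012369 to 14037777). ins-25 had 207 and 269 cis reads in day 12 neurons, against 10 and 7 in young adult neurons and 4 or fewer in each muscle library. These are 3625 and 2400 RPM on day 12 and 39.4 and 24.8 in young adults. Summed over trans and cis sites, ins-25 was higher in day 12 neurons than in day 12 muscle (10.11 ± 1.99, edgeR adjusted p = 0.0139), where 6.82% of genes were called. With 493 of its 500 cis reads in neurons, ins-25 passed the filter on low counts through neurons alone, so that call is a description. With age in neurons ins-25 did not pass (6.09 ± 1.60, edgeR adjusted p = 0.209), where 0.049% were called. ins-27 had 10981 reads at 1 site (I, 14027236), which the authors class as cis but which is the annotated first base of its only transcript, 19 bases upstream of the coding start. At that site day 12 neurons had 981 and 750 RPM and young adult neurons 1435 and 1914, day 12 muscle 457 and 2322 and young adult muscle 936 and 1196, dauer 161 and 86.5, L1 152, L2 474 and multiple tissues 1.37 and 7.97. RPM leaves cis reads out of the library total, and the order of young adult neurons and muscle turns with that choice: scaled to trans and cis reads ins-27 had 668 and 1032 CPM in young adult neurons against 928 and 1242 CPM in young adult muscle (-0.35 ± 0.89). In neither comparison of the tissues did ins-27 pass the threshold on trans and cis reads (edgeR adjusted p = 0.941 for young adult neurons over muscle and 0.249 on day 12).

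**Figure D5:**
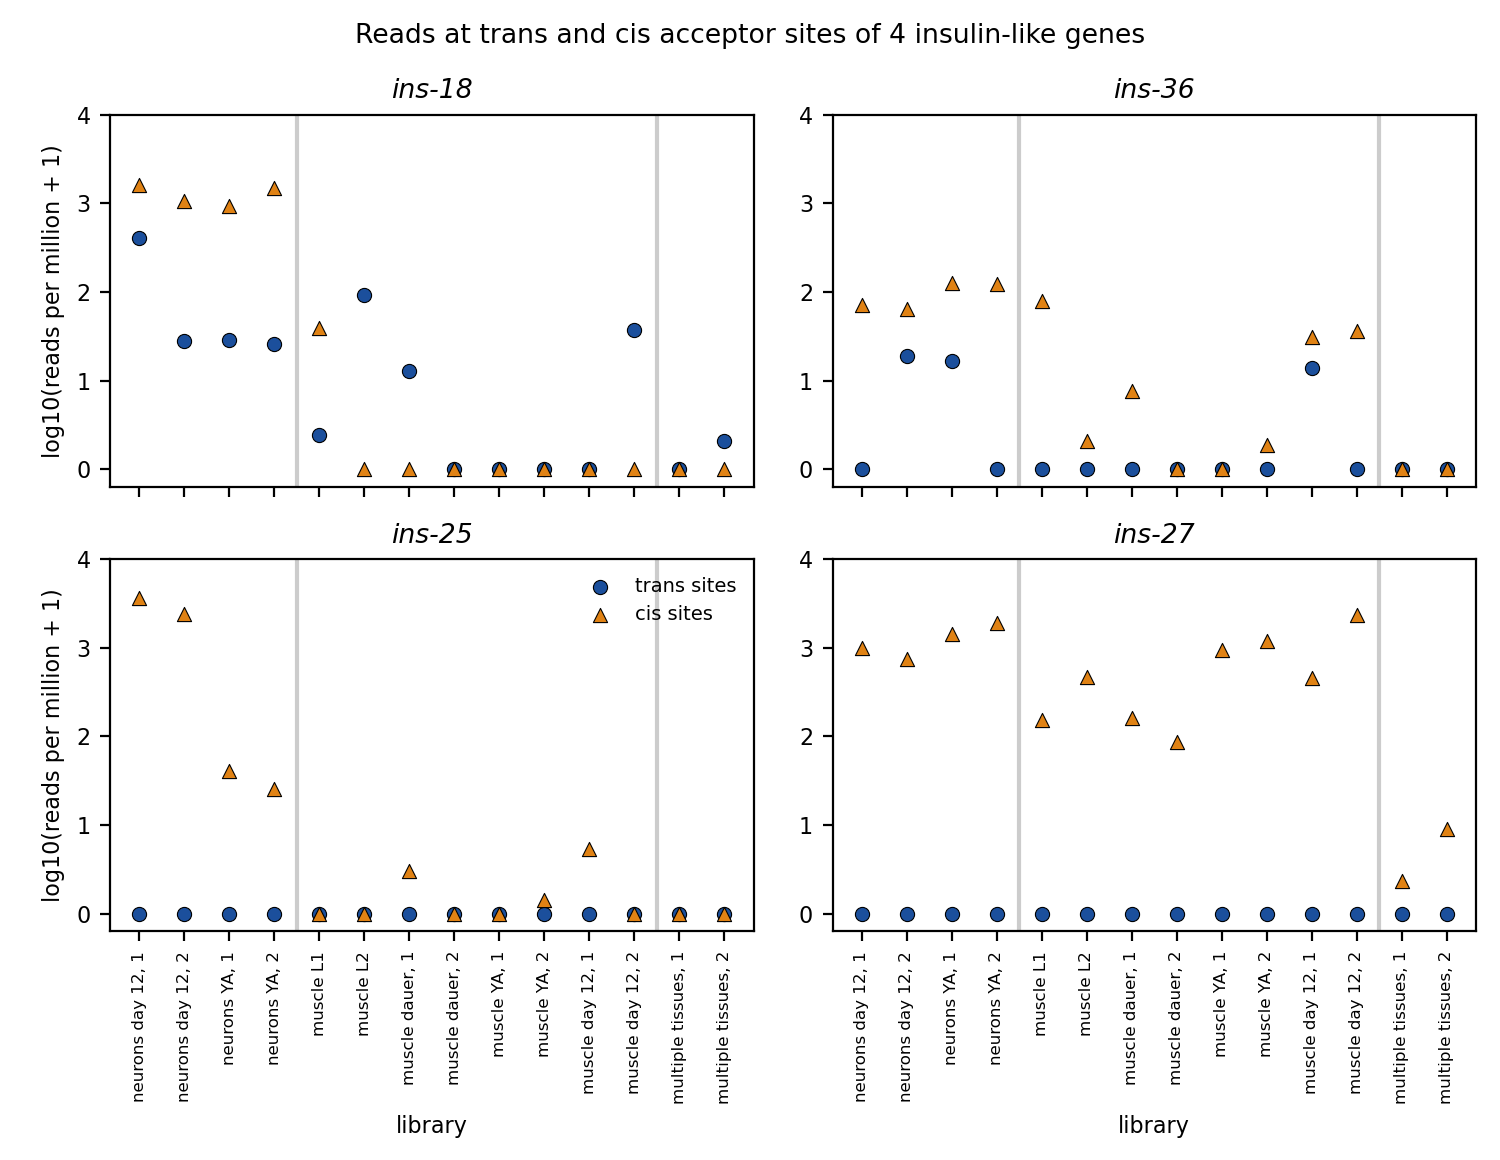
Reads at trans sites (circles) and cis sites (triangles) of 4 insulin-like genes as log10(RPM + 1) in each SL1-tag library. All trans points of ins-25 and ins-27 lie at 0, with cis reads of ins-25 mainly in neurons (3625 and 2400 RPM on day 12) and those of ins-27 in both tissues (936 and 1196 RPM in young adult muscle).

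Downstream of the peptides lie their receptor and its kinase cascade. The receptor gene daf-2 had 0 and 0 CPM in day 12 neurons and 3.63 and 0 CPM in young adult neurons, against 5.95 and 15.0 CPM in day 12 muscle and 7.71 and 13.8 CPM in young adult muscle, and none of these comparisons passed the threshold. Its levels were 12.5 CPM at L1, 40.4 at L2, 4.86 and 9.45 in dauer. daf-16, which the cascade keeps from the nucleus, had 0 CPM in all 4 neuron libraries, where 3 reads are 10.8 to 32.4 CPM. In muscle daf-16 had 61.2 and 55.5 CPM in dauer, 32.1 and 9.03 in young adults and 2.97 and 68.1 on day 12. At L1 it had 0 CPM and at L2 4.485. Of 24 genes of the receptor pathway 20 were tested. The 14-3-3 genes ftt-2 and par-5, whose products hold DAF-16 in the cytoplasm, were the 2 of 20 called in day 12 against young adult muscle and were both lower, beside 1.55% of all tested genes called. In young adult neurons against muscle 1 of the 20, ftt-2, was called and was lower, where 13.1% of all tested genes were called. ftt-2 had 335 and 736 CPM in day 12 muscle against 8234 and 8314 CPM in young adult muscle (-3.95 ± 0.45, edgeR adjusted p = 0.00637), and par-5 fell by 1.99 ± 0.33 (edgeR adjusted p = 0.024). In neurons with age, and in dauer against larvae or young adults, 0 of the 20 were called by edgeR. The median of the 20 was -0.44 in day 12 against young adult muscle and 3.61 in dauer against larvae, beside 0 and 1.35 over all tested genes.

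Among 21 genes for processing and release of such peptides, 15 were tested. In young adult neurons against muscle edgeR called 1 of the 15 higher and 1 lower, beside 13.1% of all tested genes called. The higher one was aex-6, a Rab27 GTPase gene of vesicle release (319 and 514 CPM against 12.9 and 19.9 CPM, 4.65 ± 0.96, edgeR adjusted p = 0.011). The lower one was the syntaxin gene unc-64 (0 CPM in both neuron libraries against 217 and 317 CPM). The proprotein convertase gene egl-3 had 21.6 and 0 CPM in day 12 neurons and 43.5 and 43.4 CPM in young adult neurons, against 0 and 7.5 CPM in day 12 muscle and 33.4 and 46.4 CPM in young adult muscle. Of 22 genes held to be regulated through DAF-16 only 7 were tested. In dauer against larval muscle 1 of the 7 was called, beside 3.29% of all tested genes. This was the noncoding RNA gene tts-1, higher in dauer (5801 and 5695 CPM against 555 CPM at L1 and 338 CPM at L2, 3.73 ± 0.46, edgeR adjusted p = 0.00505). In day 12 against young adult muscle tts-1 was again the 1 of 7 called, beside 1.55% of all tested genes. It was higher on day 12 (1625 CPM on average against 107 CPM, 3.93 ± 0.47, edgeR adjusted p = 0.00656).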

How the data were processed

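Counts of reads per gene and per acceptor site were deposited by the authors for 15 libraries in 9 groups; per the submitters' processing notes Trimmomatic, TopHat2 and DESeq were used, and their versions and roles, the genome build and the treatment of reads with several places stand in none of the sources used here. The authors' deposited tables of comparisons hold a signal (normalised group means), a fold change that is the ratio of those means, and an adjusted p-value whose method is not stated. The gene table and the site table each hold per-sample columns, 3 in number, that match no library and were not used. The members and gene lists were chosen with earlier results of these data known.

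The 14 SL1-tag libraries were fitted together in edgeR 4.0.16 (R 4.3.3, limma 3.58.1) with group means, TMM scaling, filterByExpr and the quasi-likelihood F test, with Benjamini-Hochberg adjustment over 8954 genes and larvae as the mean of L1 and L2. Standard errors are the log2 fold change over the root of F. Tables were made with Python 3.11.15, pandas 2.3.3 and scipy 1.17.1. The fit was also run on simulated data, where only genes of higher count were changed. Their spread between libraries was capped below the spread estimated from these libraries, so that run cannot vouch for the calls made here. All members with a read are named, those with at least 20 reads or a call are given by library, and for other lists up to 4 called genes with the smallest p per comparison. Against a group with no read, folds are bounds at 3 counts over that group. Alternatives were DESeq2 1.42.0 (Wald test and size factors), no filter, the compared groups alone, a replicate block, leaving out each library, read minimums and thinning, and, chosen after seeing the data, counts over trans and cis sites. Gene places are those of Ensembl's WBcel235 annotation. Deposited sites on the plus strand were moved by 1 base, after which 90.6% of 32276 cis sites lay at annotated exon starts. The labels call most groups biological duplicates without saying more of the cultures, so p-values measure the spread between these libraries. Sequences were not printed. The authors' deposited larval tables do not match the larval counts of ins-34 and ins-35 and, like the other remaining tables, were not used here.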

Additional observations from a re-analysis of the deposited data

Results flagged for a closer look

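The results below are signals outside the gene counts, at cis sites or on the antisense strand of insulin-like genes, with at least 10 reads and more RPM in neuron or muscle libraries than in multiple tissues. The most reads fell on ins-27, with 10981 at its site I, 14027236 (541 RPM over the tissue libraries, against 5.49 in multiple tissues). The exon 2 site of ins-18 held 845 reads and its exon 3 site 51, the exon 2 site of ins-25 held 500, and a site of ins-36 held 223. Fewer reads fell on cis sites of ins-16 (29), ins-15 (20, all in day 12 muscle replicate 2), ins-28 (17), ins-1 (15) and ins-19 (11). On the antisense strand of ins-31, a gene with no read of its own, 16 reads were found, 10 and 6 of them in the young adult neuron libraries. In the multiple-tissue libraries each of these sites other than that of ins-27 was at 0. No group held 4 or more libraries, so a search for single outlying libraries could not be made.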

How the results depend on the processing

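Over 27 pairs of member and comparison called as reported, 207 alternative fits kept the call, 61 did not and 0 changed the sign of the fold. Several of these pairs have a group with no read of the member. There the sign was all but fixed beforehand, so the 0 does not measure how stable it is. Over 105 pairs not called, 50 of 1039 alternative fits passed the threshold, and 36 changed the sign without passing it, in 22 pairs of ins-1, ins-5, ins-7, ins-15, ins-18, ins-34 and ins-35; with counts over trans and cis sites ins-18 in day 12 against young adult neurons was at -0.19 (2.38 as reported). Among members called in young adult neurons against muscle, DESeq2's Wald test lost ins-22 and added ins-18 and ins-35, the replicate block lost daf-28, the fit to the compared groups alone did not test it, counts over trans and cis sites lost it and added ins-18, and without the filter it was lost and ins-18 and ins-35 were added. Numbers in brackets below are the genes of all kinds called in the same fit. In day 12 against young adult muscle 1 member was called as reported (139 of 8954). The number of members called was 6 without the filter on low counts (612 of 12606) and 6 with DESeq2's Wald test (877 of 8954). It was 0 with the replicate block (167 of 8954), with the compared groups alone (0 of 4782) and with counts over trans and cis sites (146 of 12235). In day 12 against young adult neurons it was 1 without the filter (149 of 12606) and 3 with the compared groups alone (286 of 2258). In dauer against larvae it was 0 with the compared groups alone (0 of 6713). With the compared groups alone it was 8 of 9 tested members in day 12 neurons against multiple tissues (4023 of 5316). In young adult muscle against multiple tissues it was 3 without the filter (1024 of 12606) and 1 with the replicate block (599 of 8954). There it was 4 of 4 tested members with the compared groups alone (4417 of 5812) and 1 with DESeq2's Wald test (1196 of 8954). In the difference of age changes between tissues it was 2 without the filter (362 of 12606) and 1 with the replicate block (113 of 8954). For that difference it was 1 with the compared groups alone (71 of 4992) and 3 with DESeq2's Wald test (550 of 8954). The cause of these moves was not tested.

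Leaving out 1 library gave 3 to 4 calls in young adult neurons against muscle, 1 to 2 on day 12, 0 to 1 in day 12 against young adult muscle, 3 to 4 in both neuron groups against multiple tissues, 0 to 4 in day 12 muscle and 0 to 2 in dauer against multiple tissues, and 0 in each of the other comparisons. A group left with 1 library is assumed to vary like the others. With a minimum of 10 reads 14 members were read in neurons, 6 in neurons but not muscle and 0 in muscle but not neurons (0.247 after thinning), and 14 trans and 8 cis sites of members were in use. Replicate numbers did not pair the libraries: deviations of same-numbered libraries correlated by -0.0364 to 0.0164 over 15 pairs of groups, so the block joins libraries by number alone. The count over all genes moved more, from 487 to 2528 in young adult neurons against muscle, 147 to 1010 on day 12, 0 to 877 with age in muscle, 0 to 309 with age in neurons, 0 to 1141 for dauer against larvae, 1 to 360 for dauer against young adults and 0 to 550 for the difference of age changes. With DESeq2's size factors the share of all calls that were higher was 67% on day 12 (44.4% with TMM), 68.5% with age in muscle (38.8%), 90% with age in neurons (50%), 60.9% for dauer against young adults (41.7%), and against multiple tissues 66.6% for young adult neurons (45.8%), 82.7% for day 12 neurons (57%) and 70.5% for day 12 muscle (49.7%). Depth limits the neuron libraries most, where a member under 3 reads cannot be told from none.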
